A study of Mus musculus with 14 samples.

Results

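TR.1 is a mouse line of lung adenocarcinoma, and its cultures that had become resistant to RET inhibitors were compared gene by gene with the change that TR.1 cells showed over their first days in selpercatinib. All genes that reached a CPM of 1 (counts per M counts in the library) in at least 2 libraries of each of 2 deposited count tables were taken, which left 13432 of 55415 rows. The resistance table held 2 libraries of selpercatinib-resistant cells labelled 500 nM, 2 of pralsetinib-resistant cells labelled 200 nM and 400 nM, and 2 of parental cells passaged in 0.1% DMSO. Resistant cultures were started at 30 nM and escalated over about 60 days, and the protocol gives final concentrations between 400 and 500 nM, so the 200 nM label lies below the range stated. The acute table held TR.1 cells in 100 nM selpercatinib and in 0.1% DMSO, with 1 library of each arm at days 1, 2, 3 and 5. All 14 libraries carry the Trim24-RET fusion, a kinase fusion in which TRIM24 sequence precedes the RET kinase domain, and all came from the single line TR.1. Whether inhibitor was still present when RNA was taken from the resistant cells is not given in the sources used here, nor whether libraries of a group came from separate cultures. The p-values below therefore describe scatter among libraries that may be technical.

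RET is a receptor tyrosine kinase whose fusions signal without ligand through the RAS, RAF, MEK and ERK cascade. ERK activity switches on its own brakes, the DUSP phosphatases and the Sprouty and Spred proteins, along with ETS factors such as ETV4 and ETV5, so these transcripts serve as a readout of the pathway. Selpercatinib and pralsetinib are selective RET kinase inhibitors. Tumours that outgrow such drugs may do so through a changed RET kinase, through other receptor kinases, or with a change of cell state such as a loss of epithelial junctions and a gain of mesenchymal matrix genes.

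For each gene the resistant change was the mean log2(CPM + 1) over the 4 resistant libraries minus that of the 2 parental ones, and the acute change was the mean of the 4 day-paired differences, selpercatinib minus DMSO, on the same scale. Differences on this scale understate the change of genes with low CPM. Levels were compared only within a table, and the doses differed between the acute, selpercatinib-resistant and pralsetinib-resistant arms, so the changes are given side by side and not as a dose series. A gene was called where edgeR's quasi-likelihood test gave a Benjamini-Hochberg adjusted p under 0.05, and a further such test, over all 14 libraries, asked whether the resistant change differed from the acute one. Libraries held between 60.7 and 89.8 M counts, and a count of 3, used as a floor, corresponded to between 0.0334 and 0.0494 CPM.

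Ret itself, at chr6:118151745-118197718 of mm10 (GENCODE M21), had 35.4 and 33.3 CPM in selpercatinib-resistant and 41.3 and 35 CPM in pralsetinib-resistant libraries, against 52.8 and 48.9 CPM in parental libraries. It had 42.2, 37.3, 32.1 and 27.2 CPM at days 1, 2, 3 and 5 in selpercatinib and 57, 53.8, 50.9 and 48.3 CPM in DMSO. Ret therefore had counts in all 14 libraries, and it was lower in every resistant library than in both parental ones and in every selpercatinib library than in its DMSO partner. Both changes were called, with edgeR log2 fold changes of -0.49 ± 0.08 in resistant cells and -0.61 ± 0.09 acutely (SE), and they did not differ by the test of the difference (adjusted p = 0.43, edgeR). Gene counts do not separate the fusion from the normal allele. Trim24 had a resistant change of -0.19 ± 0.10 (SD over 4 resistant libraries) and an acute change of -0.63 ± 0.17 (SD over 4 day pairs). Its resistant call was lost with library totals in place of TMM scaling (adjusted p = 0.341, edgeR).

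Most genes tested were called in each setting taken singly. The resistant test called 9851 genes (73.3% of those tested), of which 4973 (37.0%) were higher and 4878 (36.3%) lower. Taken alone, the selpercatinib-resistant libraries had 9202 calls (68.5%), 34.5% of genes higher and 34.0% lower. The pralsetinib-resistant libraries had 9414 calls (70.1%), 35.8% of genes higher and 34.3% lower, against the same parental libraries. The acute test called 7122 genes (53.0%), of which 3532 (26.3%) were higher and 3590 (26.7%) lower. The sign was the same in all 4 day pairs for 64.9% of genes. The resistant change differed from the acute change for 6645 genes (49.5%), of which 3308 (24.6%) were higher and 3337 (24.8%) lower. With library totals in place of TMM scaling the median log2 difference between the changes shifted from near 0 to 0.18, and 63.5% of the called differences were then higher, against 49.8% with TMM. Of the resistant calls 59.2% were then higher, against 50.5% with TMM. The resistant and parental libraries did not overlap for 76.9% of genes, so a lack of overlap is near the background here.

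Calls alone were therefore too common to sort the genes, and an additional size of at least 1 on the log2(CPM + 1) scale was asked. With it 2609 genes (19.4%) had a resistant change, 9.72% higher and 9.70% lower, and 1459 (10.9%) an acute one, 6.37% higher and 4.49% lower. The 450 shared rises were 34.5% of the 1306 resistant rises, and the 405 shared falls were 31.1% of the 1303 resistant falls. Of the 856 genes that rose acutely by this measure, the same 450 were 52.6% and 67 (7.83%) were lower in resistant cells. Of the 603 that fell acutely, the same 405 were 67.2% and 20 (3.32%) were higher in resistant cells. Across the 13432 genes the resistant and acute changes had a Pearson correlation of 0.538 and a Spearman correlation of 0.466. Single days gave Pearson values of 0.424 at day 1, 0.507 at day 2, 0.561 at day 3 and 0.532 at day 5. These are descriptions across genes, which are not independent replicates, and the tables share no library.

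**Figure D1:**
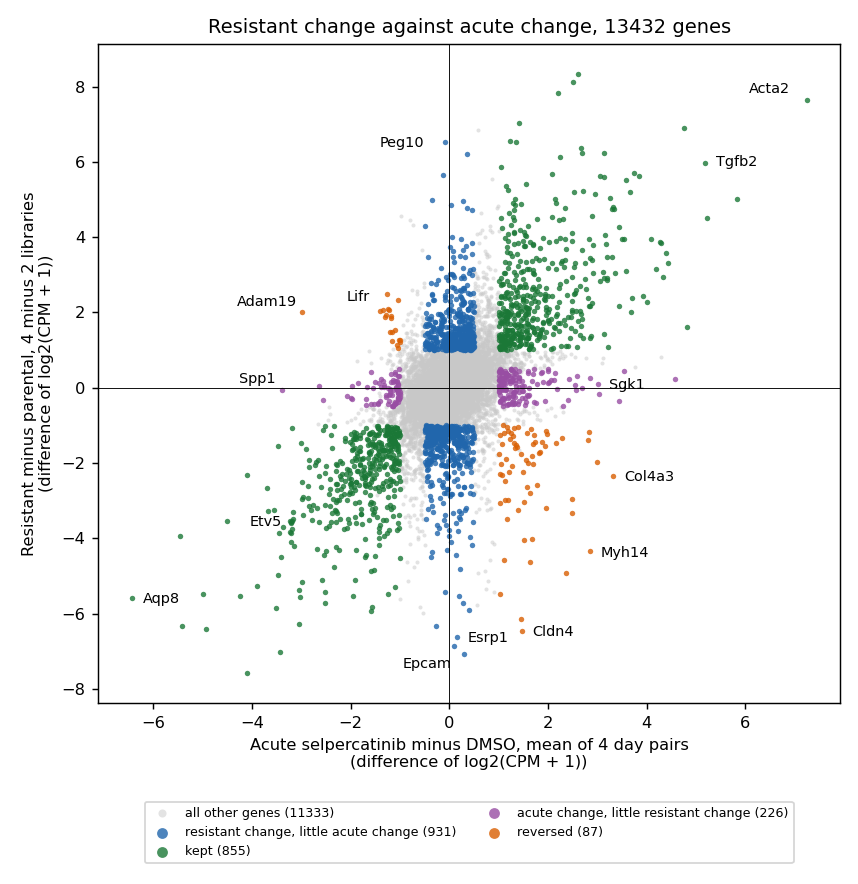
Each point is 1 of 13432 genes, with the acute change (selpercatinib minus DMSO, mean of 4 day pairs) on the x axis and the resistant change (4 resistant minus 2 parental libraries) on the y axis, both as differences of log2(CPM + 1). Kept genes (green) fill 2 opposite corners, 87 reversed genes (orange) lie in the other corners, 931 genes with a resistant change and little acute change (blue) lie along the vertical axis, and 226 with the opposite pattern (purple) lie along the horizontal axis.

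Genes were then sorted into 4 kinds. A change was kept where both tests called it in the same direction with a size of at least 1 in both, which held for 855 genes (6.37%), 450 of them higher (3.35%) and 405 lower (3.02%). It was reversed where the directions were opposite, which held for 87 genes (0.648%), 67 of them lower in resistant cells (0.499%) and 20 higher (0.149%). It was resistant with little acute change where the resistant change was called with a size of at least 1, the acute change was under 0.5 in size and the difference was called, which held for 931 genes (6.93%). The mirror image, acute with little resistant change, held for 226 genes (1.68%). Of the 931, 481 were higher (3.58%) and 450 lower (3.35%), and of the 226, 152 were higher (1.13%) and 74 lower (0.551%). Since these measured values chose the genes, the values below describe the kinds and are no further test of them. Among the kept genes, the resistant change was larger by the test of the difference for 203 of the 450 higher and 167 of the 405 lower, and smaller for 33 and 31. Of the 450 kept higher genes, 128 reached the CPM minimum in the resistance table through resistant libraries only and 83 in the acute table through selpercatinib libraries only, so their direction was fixed by the filter. Of the 405 kept lower genes, 111 and 74 passed likewise through parental or DMSO libraries only. The resistant direction was fixed in the same way for 65 of the 481 and 70 of the 450 genes with little acute change, and for 27 of the 67 reversed genes that were lower in resistant cells. At the edge of the rule, Cyp27a1 and Mill2 passed with a second highest library of 1.00 CPM in the weaker table, and Hp (0.999 CPM) and Cers1 (0.996 CPM) did not.

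**Figure D2:**
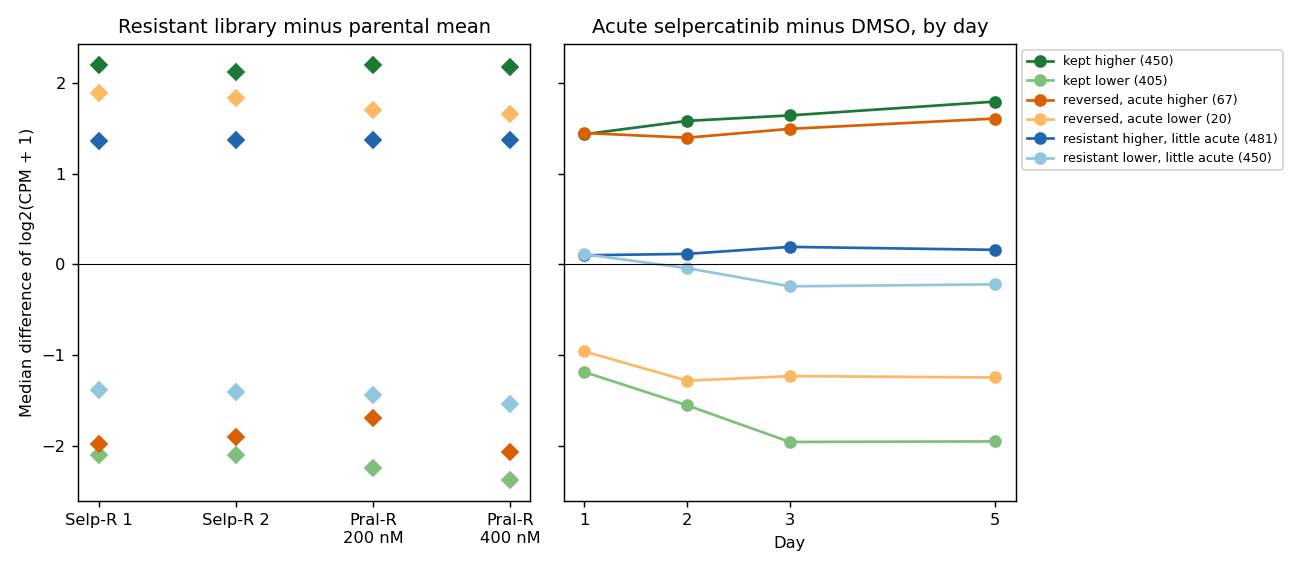
Median difference of log2(CPM + 1) over the genes of 6 of the kinds, on the left for each of the 4 resistant libraries minus the parental mean and on the right for each acute day pair. The 450 kept higher genes had medians between 2.12 and 2.20 in the resistant libraries and between 1.43 and 1.79 over the acute days, while the 481 genes higher in resistant cells with little acute change stayed near 0 on the right.

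The kept rises with the largest changes, among genes with a mean CPM of at least 5 in each table and no overlap, were those of Acta2, Tgfb2, Adamts5, Scube3, Myl9 and Akap5. Acta2, smooth muscle actin, had 318 and 304 CPM in selpercatinib-resistant and 237 and 101 CPM in pralsetinib-resistant libraries, against 0.172 and 0.0389 CPM in parental ones. It had 49.9, 180.0, 281 and 810.2 CPM at days 1, 2, 3 and 5 in selpercatinib, against 0.837, 0.451, 0.172 and 0.281 CPM in DMSO. The selpercatinib values went up with each day, and no resistant or treated library came near a control. The resistant change was 7.64 ± 0.76 and the acute change 7.24 ± 1.90, and they did not differ beyond the spread (adjusted p = 0.36, edgeR). Myl9, the regulatory light chain of smooth muscle myosin, had 31.5, 26.5, 23 and 12 CPM in the 4 resistant libraries, in the order selpercatinib-resistant 1 and 2, then pralsetinib-resistant 200 nM and 400 nM, and no count in either parental library, so no fold is given. It had 9.61, 25.7, 63.2 and 225 CPM in selpercatinib and 0.167, 0.188, 0.244 and 0.197 CPM in DMSO. Both genes passed the CPM minimum only through resistant and treated libraries.

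Tgfb2, a ligand of the TGF-beta receptors, lay at 186, 166, 222 and 221 CPM in the 4 resistant libraries, against 2.1 and 2.19 CPM in parental ones, and at 95.7, 109, 132 and 159 CPM over the 4 days in selpercatinib, against 2.87, 1.72, 2.75 and 2.33 CPM in DMSO. The acute arms were far apart from day 1 on. The resistant change of 5.98 ± 0.20 was larger than the mean acute change of 5.18 ± 0.40 (adjusted p of the difference = 0.0134, edgeR), a call that was lost without parental library 1 (0.0615) or 2 (0.0554). Adamts5, an aggrecan-cleaving protease, changed by 5.03 ± 0.21 in resistant cells and 5.83 ± 0.63 acutely, with no called difference (adjusted p = 0.662, edgeR). Scube3, a secreted glycoprotein, had 184, 191, 145 and 198 CPM in resistant libraries against 0.499 and 0.506 CPM in parental ones, and 27, 69.8, 111 and 129.6 CPM in selpercatinib against 1.3, 1.4, 1.92 and 2.39 CPM in DMSO. Its resistant change of 6.90 ± 0.20 exceeded the acute one of 4.75 ± 0.79 (adjusted p = 0.000185, edgeR). Scube3 passed the CPM minimum in the resistance table through resistant libraries only, which fixed the direction of its resistant change. Akap5, an anchor of protein kinase A, changed by 3.96 ± 0.21 in resistant cells and 4.08 ± 0.47 acutely.

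Kept falls were as steep. Aqp8, a water channel at chr7:123462291-123468004, had 0, 0, 0.0283 and 0 CPM in the 4 resistant libraries, at or under the floor in each, against 45.8 and 48.7 CPM in parental libraries. It had 0.702, 0.066, 0.0112 and 0.0123 CPM in selpercatinib on days 1, 2, 3 and 5, against 125, 148, 114 and 47.8 CPM in DMSO. Nptx1, a secreted neuronal pentraxin, changed by -6.32 ± 0.41 in resistant cells and -5.42 ± 0.69 acutely. Slc14a1, a urea transporter, had 0.0152, 0, 0.0991 and 0.0281 CPM in the resistant libraries against 84.1 and 90.8 CPM in parental ones. Its resistant change of -6.42 ± 0.06 was larger than the acute change of -4.93 ± 0.56 (adjusted p = 6.26e-05, edgeR). Both Aqp8 and Slc14a1 passed the CPM minimum in the resistance table through parental libraries only, which fixed the direction of their resistant change. In the acute table Aqp8 passed through DMSO libraries only, so its acute direction was fixed too. Hmga2, a chromatin protein of embryonic tissues and many tumours, had 39.7, 40.9, 35.8 and 20.8 CPM in resistant and 1536 and 1608 CPM in parental libraries. It had 121, 93.7, 59.4 and 35.6 CPM in selpercatinib and 1132, 1270.2, 1551 and 1430.2 CPM in DMSO, a gap that widened with the days. Acan, the core protein of cartilage proteoglycan, fell to 2.31, 2.42, 1.16 and 0.703 CPM in resistant libraries, against 482 and 490.1 CPM in parental ones, and changed by -4.10 ± 1.18 acutely. Prl2c3 also met the rule for naming (resistant change -5.47, acute change -4.98), but it has near-identical copies, so the assignment of its reads is uncertain.

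Most transcripts that read out ERK signalling fell in both settings. Of 20 genes listed, all measured, 17 fell and 3 rose in resistant cells, and 16 fell and 3 rose acutely. Of these, 18 were called in the same direction in both, beside 4401 of all 13432 genes. By size as well, 11 of the 20 were kept, beside 855 of all genes. For this and each list below, the background is 37.0% of all genes higher and 36.3% lower in resistant cells, and 26.3% higher and 26.7% lower acutely. The ERK list had a median resistant change of -2.24, beside 0.005 over all genes, and a median acute change of -1.62, beside -0.006 over all genes. The medians of the 4 resistant libraries lay between -2.40 and -2.20, and by day the acute median was -1.04, -1.46, -1.90 and -1.98. Etv5, an ETS factor, had 8.23, 7.74, 6.8 and 6.94 CPM in resistant libraries against 81.9 and 81.7 CPM in parental ones, and 6.27, 7.81, 8.24 and 9.86 CPM in selpercatinib against 62.3, 77.6, 90.0 and 92.8 CPM in DMSO. Its resistant change of -3.30 ± 0.11 and acute change of -3.17 ± 0.09 did not differ by the test (adjusted p = 0.25, edgeR; log2 difference between them -0.14 ± 0.09, SE). Spry4, a feedback inhibitor, gave changes of -3.55 ± 0.15 in resistant cells and -3.24 ± 0.34 acutely (adjusted p of the difference = 0.279, edgeR).

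Other ERK-regulated genes varied in the size of both changes. Dusp5, a nuclear ERK phosphatase, had a resistant change of -4.45 ± 0.39 that exceeded its acute change of -2.54 ± 0.54 (adjusted p = 0.000217, edgeR). Dusp4, a phosphatase of the same family, had 8.36, 9.43, 11.8 and 14.7 CPM in resistant libraries and 165 and 187 CPM in parental ones, and the resistant fall was larger (adjusted p = 7.88e-07, edgeR). It had 78.9, 129, 98.4 and 102 CPM in selpercatinib and 102, 128, 165 and 205 CPM in DMSO, so that the acute arms overlapped over the days and the acute call was lost without the day 3 pair (adjusted p = 0.117, edgeR) or the day 5 pair (0.0969), and without the day as a block (0.0871). Fosl1, an AP-1 subunit, went the other way, with a resistant change of -2.66 ± 0.18 that was smaller than its acute change of -3.69 ± 0.76 (adjusted p = 0.0413, edgeR), but that call was lost without any 1 of the 6 libraries of the resistance table (0.0556 to 0.126) without the day 3 pair (0.0906) and without the day as a block (0.225). Ccnd1, the G1 cyclin, had changes of -2.54 ± 0.16 in resistant cells and -1.99 ± 0.25 acutely. Il1rap, the interleukin-1 receptor accessory chain, was the listed gene that was called only in resistant cells, at 22.4, 20.8, 12.4 and 17.9 CPM against 5.46 and 5.61 CPM in parental libraries, and its changes differed (adjusted p = 3.86e-05, edgeR). Ier3 was called in opposite directions, with changes of -0.71 in resistant cells and 0.84 acutely.

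Immediate-early genes, the transcription factors that growth factors and stress induce within minutes, were mostly lower in resistant cells and mixed in the acute setting. Of 20 listed, 19 were measured, and 4 rose and 14 fell in resistant cells, whereas 7 rose and 6 fell acutely, with medians of -1.25 in resistant cells and 0.05 acutely (-0.10 without the day 1 pair). Nr4a1 fell in both, with changes of -2.81 ± 0.37 in resistant cells and -1.97 ± 0.20 acutely, as did Egr3 with -3.37 ± 0.38 in resistant cells and -2.96 ± 0.55 acutely, and Fosb with -2.54 ± 0.33 in resistant cells and -1.99 ± 0.27 acutely. Atf3, a stress-induced factor, had 8.98, 7.87, 7.53 and 8.35 CPM in resistant libraries against 27.8 and 30.7 CPM in parental ones, and 36.4, 44.5, 36.4 and 35 CPM in selpercatinib against 28, 31.7, 37.7 and 59.2 CPM in DMSO, where the arms overlapped. Klf4 was alike, with a change of -1.78 ± 0.22 in resistant cells and 0.09 ± 0.34 acutely. Klf6 was called in opposite directions, with changes of -0.67 ± 0.20 in resistant cells and 0.97 ± 0.15 acutely.

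**Figure D3:**
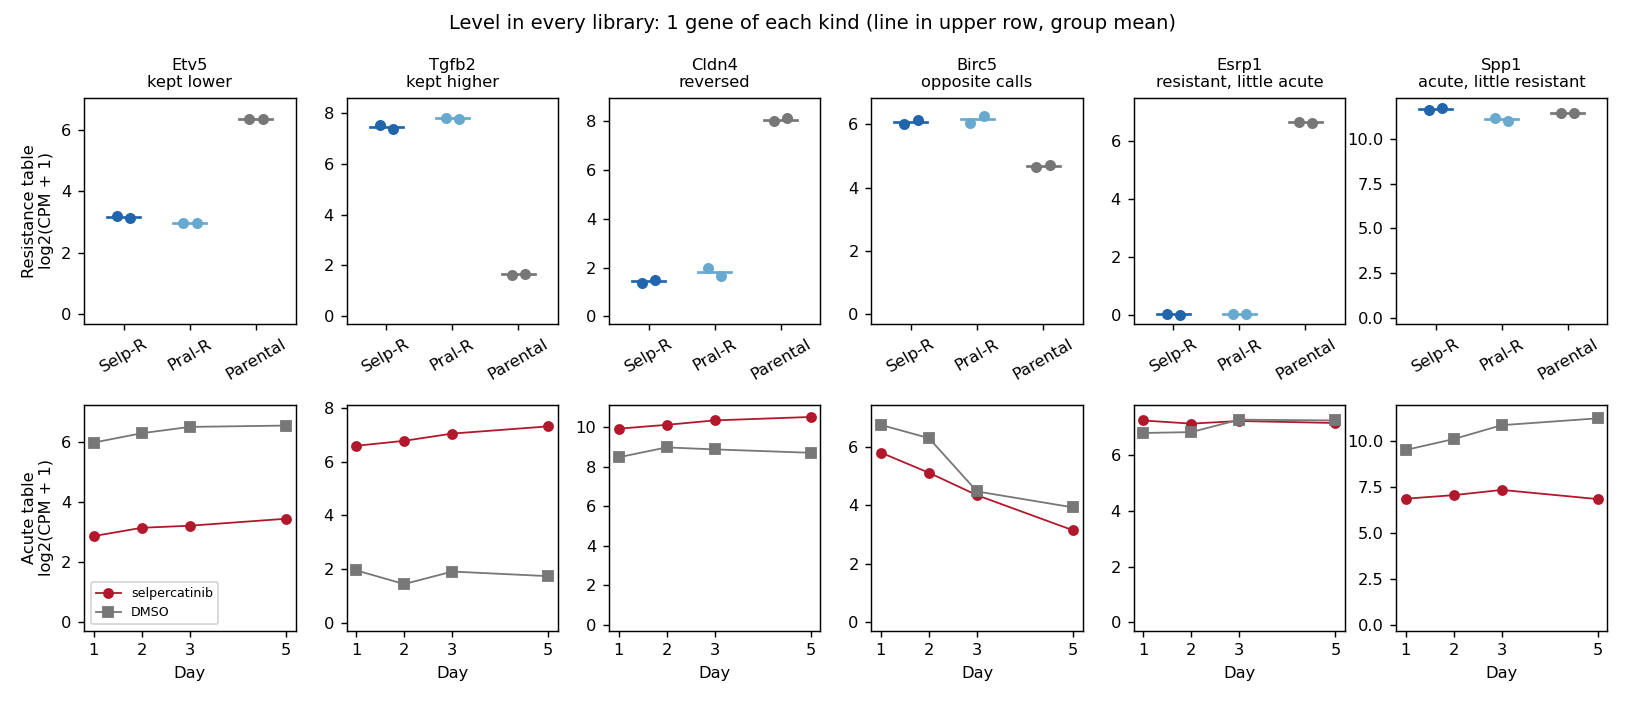
Level of 6 genes in every library as log2(CPM + 1), in the resistance table (upper row, points for libraries and a line for the group mean) and in the acute table by day (lower row, selpercatinib in red and DMSO in grey). Etv5 is lower and Tgfb2 higher than its control in both rows, Cldn4 and Birc5 are on opposite sides of their controls in the 2 rows, Esrp1 separates the groups in the upper row only, and Spp1 separates them in the lower row.

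Epithelial junction and identity genes were mostly called in opposite directions. Of 24 genes listed, all measured, 2 rose and 21 fell in resistant cells, whereas 20 rose and none fell acutely. Of the 24, 6 passed the CPM minimum in the resistance table through parental libraries only, which fixed the direction of their resistant change. Opposite calls were given to 18 of the 24, beside 1201 of all 13432 genes, and the test of the difference called 22 lower and none higher. The median change was -3.20 in resistant cells and 0.83 acutely. Each resistant library had a negative median, between -3.72 and -2.89, and each acute day a positive one, between 0.65 and 0.95. Because these are bulk libraries, fewer epithelial cells and less of these RNAs per cell cannot be told apart.

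Cldn4, a tight junction claudin, had 1.59, 1.82, 2.92 and 2.12 CPM in the resistant libraries, against 259 and 279 CPM in parental ones. It had 969.6, 1109.6, 1297 and 1463 CPM in selpercatinib, against 355, 503, 469 and 416 CPM in DMSO. The arms did not overlap in either table, and the difference between the changes was -8.48 ± 0.20 on edgeR's log2 scale (SE, adjusted p = 7.6e-10, edgeR). St14, the membrane protease matriptase, had 0.182, 0.295, 0.552 and 0.618 CPM in resistant libraries against 98.9 and 98.7 CPM in parental ones, and 349, 368, 374 and 376 CPM in selpercatinib against 153, 139, 128 and 116 CPM in DMSO. Dsp, the desmosomal plaque protein desmoplakin, had a resistant change of -4.04 ± 0.52 and an acute change of 1.51 ± 0.02. Cdh1, E-cadherin, followed it with -2.03 ± 0.63 in resistant cells and 1.05 ± 0.01 acutely, and Dsc2, a desmosomal cadherin, with -1.80 ± 0.22 in resistant cells and 1.67 ± 0.07 acutely.

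Several of the strongest resistant falls in this group had little acute change. Epcam, an epithelial surface adhesion molecule at chr17:87635979-87651129, had 0.728, 0.525, 1.39 and 0.562 CPM in resistant libraries against 234 and 239.6 CPM in parental ones, and 387, 424, 435 and 445 CPM in selpercatinib against 368, 383, 328 and 298 CPM in DMSO. Its resistant change of -7.07 ± 0.30 was the largest fall among the genes with little acute change that met the rule for naming. Esrp1, a splicing factor that sets epithelial isoforms, had 0.0304, 0, 0.0283 and 0.0141 CPM in the resistant libraries, at or under the floor, against 99.6 and 98.1 CPM in parental ones. It had 151, 139.8, 149 and 142 CPM in selpercatinib and 111, 113, 154 and 151 CPM in DMSO. Grhl2, a transcription factor of epithelial genes, changed by -3.93 ± 0.13 in resistant cells and 0.00 ± 0.19 acutely. Keratins of simple epithelium fell but kept substantial counts, since Krt8 had 374, 341, 298 and 127 CPM in resistant libraries against 2419 and 2396 CPM in parental ones and Krt18 291, 278, 274 and 159.9 CPM against 2606 and 2653 CPM. Tjp3 and Dsg2 were the 2 listed genes that rose in resistant cells, by 1.17 and 0.52, and both also rose acutely. Elf3, an epithelial ETS factor, was called in neither setting.

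The promoters of Cldn4 and Dsp are shown because both genes were called in opposite directions and had the largest sizes, by the smaller of their changes, among listed genes whose promoter held the motif. Each is the RefSeq stretch from 250 bases before to 50 after the start in GRCm38.p6, Cldn4 at chr5:134946885-134947184 on the minus strand and Dsp at chr13:38151044-38151343 on the plus strand, read 5′ to 3′ along the gene. Capitals mark CAGGTG on either strand, an E-box of the type that SNAIL and ZEB repressors are known to bind.
Cldn4: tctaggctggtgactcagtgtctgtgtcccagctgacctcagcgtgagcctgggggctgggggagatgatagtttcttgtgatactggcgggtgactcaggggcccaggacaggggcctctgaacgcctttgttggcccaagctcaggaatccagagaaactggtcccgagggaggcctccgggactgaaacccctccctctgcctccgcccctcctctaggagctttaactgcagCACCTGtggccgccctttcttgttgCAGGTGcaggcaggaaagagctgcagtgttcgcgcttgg
Dsp: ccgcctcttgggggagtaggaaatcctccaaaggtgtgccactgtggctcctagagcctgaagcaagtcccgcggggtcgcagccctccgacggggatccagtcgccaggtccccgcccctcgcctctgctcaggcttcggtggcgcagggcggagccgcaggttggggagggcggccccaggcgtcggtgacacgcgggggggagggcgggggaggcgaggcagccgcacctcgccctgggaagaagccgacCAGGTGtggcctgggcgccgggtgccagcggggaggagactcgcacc
The matches in Cldn4 begin at positions -14 and 11 from the start, and the one in Dsp at position 3. This E-box stands in 20.2% of the 32851 RefSeq promoters of that length. A share over the list is void, since promoters were matched for only 14 of its 24 genes. A match is a description of the letters and not of binding.

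Genes outside the list that reversed in the same sense included Myh14, Sfn, Dgkk, Col4a3, Apob and Scel. Myh14, a non-muscle myosin heavy chain, had 1.05, 0.705, 1.56 and 0.689 CPM in resistant libraries against 39.3 and 38.6 CPM in parental ones, and 284, 345, 441 and 507 CPM in selpercatinib against 35.8, 51.3, 61.9 and 67.3 CPM in DMSO. Sfn, the epithelial 14-3-3 protein sigma, changed by -2.97 ± 0.14 in resistant cells and 2.50 ± 0.75 acutely. Dgkk, a diacylglycerol kinase, changed by -4.92 ± 0.10 in resistant cells and 2.37 ± 0.66 acutely. Scel, a protein of the cornified envelope, changed by -2.01 ± 0.12 in resistant cells and 1.69 ± 0.14 acutely. Apob, the structural protein of lipoproteins, had resistant values spread over 5.8, 11.6, 4.08 and 0.9 CPM, against 21.1 and 18.7 CPM in parental libraries, and changes of -1.96 ± 1.14 in resistant cells and 2.99 ± 0.85 acutely. In all, 67 genes were lower in resistant cells and higher acutely, and the test of the difference was part of neither choice. Dgkk was among the 27 of these whose resistant direction was fixed by the CPM minimum.

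Another 20 genes reversed in the other sense. Adam19, a membrane metalloprotease, had 27.4, 23.5, 13.6 and 10.9 CPM in resistant libraries against 3.89 and 3.35 CPM in parental ones, and 1.89, 1.07, 0.961 and 0.531 CPM in selpercatinib against 19.3, 15.7, 17.7 and 10.2 CPM in DMSO. Lifr, a receptor chain for leukaemia inhibitory factor, changed by 2.07 ± 0.34 in resistant cells and -1.34 ± 0.61 acutely. Adamts9, a secreted protease, changed by 1.95 ± 0.34 in resistant cells and -1.29 ± 0.26 acutely, and Car12, a membrane carbonic anhydrase, by 2.09 ± 0.16 in resistant cells and -1.24 ± 0.60 acutely. Ska1, a kinetochore protein, and Dna2, a replication nuclease, also belonged here, with changes of 1.84 in resistant cells and -1.18 acutely for Ska1 and of 1.48 in resistant cells and -1.17 acutely for Dna2. Fitted without the day as a block, the acute calls of Ska1 (adjusted p = 0.106, edgeR) and Dna2 (0.0546) were lost.

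Cell-cycle genes went in opposite directions as well, mostly by less than the size asked of a reversed gene. Of 26 mitosis genes, all measured, 24 rose and 1 fell in resistant cells, whereas 21 fell and none rose acutely. The test of the difference called all 26 higher, against 24.6% of all genes, and 19 had opposite calls. The median was 0.68 in resistant cells and -0.62 acutely, with medians between 0.60 and 0.78 in the resistant libraries and of -0.81, -0.95, -0.58 and -0.19 over the acute days. Of 26 replication genes, 19 rose and 2 fell in resistant cells, 20 fell and 1 rose acutely, and 22 were higher in the test of the difference, with medians of 0.64 in resistant cells and -0.70 acutely.

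Birc5, the mitotic regulator survivin, had 64.1, 69.9, 65.5 and 75.5 CPM in resistant libraries, against 24.4 and 25 CPM in parental ones, with no overlap. It had 55.1, 33.7, 19.4 and 7.85 CPM in selpercatinib and 107, 78.2, 21.3 and 14.3 CPM in DMSO. Both acute arms were lower at each later day, and selpercatinib lay below DMSO on each of the 4 days. Mki67, the proliferation antigen Ki-67, had 319, 385, 342 and 347 CPM in resistant libraries against 182 and 159.5 CPM in parental ones, and 342, 207, 139 and 54.3 CPM in selpercatinib against 687, 488, 204 and 68.7 CPM in DMSO. Nuf2 and Kif20a, a kinetochore subunit and a cytokinesis kinesin, had resistant changes of 1.81 ± 0.06 and 1.68 ± 0.12 beside acute changes of -0.54 ± 0.51 and -0.74 ± 0.44. Uhrf1, which couples replication to DNA methylation, changed by 0.91 ± 0.14 in resistant cells and -1.22 ± 0.28 acutely, and Mcm5, a helicase subunit, by 1.16 ± 0.15 in resistant cells and -0.77 ± 0.46 acutely. Cdt1, a replication licensing factor, was lower in both, by -0.83 in resistant cells and -1.59 acutely. The DMSO libraries were themselves not level for these genes, and the state of growth of the cultures is not given in the sources used here. Fitted without the day as a block, the acute calls for Birc5, Mki67, Nuf2, Kif20a, Mcm5 and Uhrf1 were lost (adjusted p between 0.110 and 0.374, edgeR). The calls of the difference were lost there too for these genes other than Nuf2, and for Cdt1 (adjusted p between 0.0515 and 0.151, edgeR). The acute call for Nuf2 was also lost without the day 1 pair (0.122), the day 2 pair (0.170) or, at the threshold, the day 5 pair.

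The promoters of Mki67 and Cdk1, the mitotic kinase, were chosen in the same way among mitosis genes that held TTTGAA, the cell-cycle homology region. They lie at chr7:135716330-135716629 and chr10:69352863-69353162, both on the minus strand of GRCm38.p6 and from RefSeq. Capitals mark TTTGAA on either strand, an element known to bind the DREAM and MuvB complexes that time mitotic transcription.
Mki67: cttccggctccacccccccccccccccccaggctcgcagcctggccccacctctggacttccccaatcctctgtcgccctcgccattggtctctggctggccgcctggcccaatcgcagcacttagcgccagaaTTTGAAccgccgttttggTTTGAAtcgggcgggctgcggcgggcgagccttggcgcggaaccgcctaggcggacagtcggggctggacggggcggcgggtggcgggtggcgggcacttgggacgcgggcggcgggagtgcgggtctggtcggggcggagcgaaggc
Cdk1: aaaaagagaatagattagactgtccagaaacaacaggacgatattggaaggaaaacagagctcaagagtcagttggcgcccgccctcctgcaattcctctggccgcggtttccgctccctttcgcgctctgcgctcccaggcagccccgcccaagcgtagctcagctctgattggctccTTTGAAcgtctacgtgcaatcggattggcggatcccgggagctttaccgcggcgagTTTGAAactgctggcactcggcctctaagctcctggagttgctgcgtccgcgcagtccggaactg
The matches begin at -116 and -98 in Mki67 and at -71 and -15 in Cdk1. Promoters were matched for 22 of the 26 mitosis genes, and 15 of these (68.2%) held the element, beside 17.9% of the 32851 promoters and 14.2% of the 9689 promoters of genes tested here. Cdk1 changed by 0.67 ± 0.10 in resistant cells and -0.71 ± 0.20 acutely.

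Genes that changed in resistant cells with little acute change included 481 that were higher and 450 that were lower. Peg10, an imprinted gene of retrotransposon origin at chr6:4747306-4760517, had 254, 257, 228 and 359 CPM in the resistant libraries, against 2.01 and 1.83 CPM in parental ones. It had 7.96, 6.06, 4.31 and 4.06 CPM in selpercatinib and 11.1, 5.85, 3.67 and 4.75 CPM in DMSO, with overlap between the arms. Slc39a10, a zinc importer, changed by 3.05 ± 0.20 in resistant cells and 0.39 ± 0.29 acutely. Thsd7a, a membrane protein with thrombospondin repeats, changed by 3.01 ± 0.27 in resistant cells and 0.02 ± 0.45 acutely, and Hs3st1, a heparan sulfate sulfotransferase, by 2.93 ± 0.27 in resistant cells and -0.07 ± 0.30 acutely. Creb3l1, a membrane-bound factor that promotes collagen secretion, had 412, 385, 261 and 170.3 CPM in resistant libraries against 38.2 and 37 CPM in parental ones. Its acute day pairs scattered widely around a mean of 0.23 ± 1.17.

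On the lower side, Itgb4, the integrin of hemidesmosomes, had 1.9, 1.69, 1.67 and 0.956 CPM in resistant libraries against 300.0 and 283 CPM in parental ones, and 265, 237, 208 and 153 CPM in selpercatinib against 218, 203, 181 and 188 CPM in DMSO. Lama3, a chain of its ligand laminin-332, had 0.592, 0.513, 0.722 and 0.984 CPM in resistant libraries against 132 and 137 CPM in parental ones, with an acute change of -0.26 ± 0.28. Wnt7a, a Wnt ligand, had 0.0152, 0.0128, 0.127 and 0.0562 CPM against 61.7 and 63.5 CPM in parental libraries, and an acute change of 0.39 ± 0.28. Plau, the urokinase protease, had 8.45, 8.53, 5.76 and 6.13 CPM against 433 and 429 CPM in parental libraries, with an acute change of 0.28 ± 0.13. The resistant and parental libraries of each of these genes were far apart, and for Itgb4 the acute arms overlapped. Wnt7a and Esrp1 were among the 70 whose resistant direction was fixed by the CPM minimum.

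Only 226 genes showed the mirror pattern, of which 152 rose and 74 fell acutely. The selpercatinib-resistant and pralsetinib-resistant changes had the same sign for 104 of the 152 and 52 of the 74. Spp1, the secreted matrix protein osteopontin, had 3032, 3391, 2267 and 2048 CPM in resistant libraries against 2726 and 2768 CPM in parental ones, with overlap. Relative to parental cells it was higher in selpercatinib-resistant libraries (edgeR log2 fold change 0.23, adjusted p = 0.0316) and lower in pralsetinib-resistant ones (-0.35, adjusted p = 0.00454), so its small mean change averages opposite calls. In the acute table it had 115, 132, 161 and 114 CPM in selpercatinib against 726, 1093, 1843 and 2384 CPM in DMSO, with none. Sgk1, a kinase induced by serum and glucocorticoids, had 39.7, 38.5, 31.6 and 36.1 CPM in resistant libraries against 32.5 and 35.1 CPM in parental ones, and 221, 408, 352 and 439 CPM in selpercatinib against 42.2, 54.4, 35.4 and 37.6 CPM in DMSO. Sh2d4a, an SH2-domain adaptor, changed by 0.46 ± 0.43 in resistant cells and 3.54 ± 0.24 acutely, Mmp15, a membrane metalloprotease, by -0.35 ± 0.28 in resistant cells and 3.43 ± 0.76 acutely, and Npr3, the natriuretic peptide clearance receptor, by 0.26 ± 0.17 in resistant cells and 2.85 ± 0.37 acutely. Mmp9, a gelatinase, changed by 0.05 ± 0.43 in resistant cells and -2.65 ± 0.73 acutely. The Wnt inhibitor Apcdd1 changed by -0.33 ± 0.25 in resistant cells and -2.57 ± 0.46 acutely, and the chondroitin sulfate enzyme Csgalnact1 by -0.22 ± 0.20 in resistant cells and -2.08 ± 0.31 acutely.

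Many mesenchymal matrix genes rose in both settings, and most of the measured ones changed more upward in resistant cells. Of 24 genes listed, 19 were measured. In resistant cells 12 rose and 6 fell, beside 37.0% and 36.3% of all genes, and acutely 10 rose and 6 fell, beside 26.3% and 26.7%. The test of the difference called 12 of the 19 higher and 2 lower, beside 24.6% and 24.8% of all genes. Taken alone, selpercatinib-resistant libraries had 13 rises and 1 fall among them, and pralsetinib-resistant libraries 12 rises and 6 falls. Of the 19, 3 passed the CPM minimum only through resistant and 2 only through selpercatinib libraries. The medians were 1.54 in resistant cells and 0.36 acutely. Col1a1, a chain of type I collagen, had 1431 and 1261 CPM in selpercatinib-resistant and 721 and 319.8 CPM in pralsetinib-resistant libraries, against 8.07 and 7.21 CPM in parental ones, and 6.96, 12.2, 16 and 14.4 CPM in selpercatinib against 3.06, 4.41, 4.98 and 4.02 CPM in DMSO. Lox, the collagen cross-linking enzyme, had 185, 142, 68.2 and 44.3 CPM in resistant libraries against 0.344 and 0.195 CPM in parental ones, and 1.81, 7.53, 14.5 and 25.8 CPM in selpercatinib against 0.296, 0.401, 0.674 and 0.941 CPM in DMSO. Col6a1 changed by 5.24 ± 0.15 in resistant cells and 1.18 ± 0.30 acutely, Col5a2 by 3.88 ± 0.91 in resistant cells and 2.01 ± 0.08 acutely, and the matrix protein Sparc by 2.38 ± 0.20 in resistant cells and 1.69 ± 0.31 acutely. Vim, the mesenchymal intermediate filament, fell in both by like amounts, -0.75 ± 0.04 in resistant cells and -0.78 ± 0.25 acutely (adjusted p of the difference = 0.86, edgeR). Among the transcription factors of this programme, Zeb1 changed by 0.82 ± 0.08 and Twist1 by 2.33 ± 0.16 in resistant cells, while Snai2 fell in both.

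The other 5 genes of the list fell short of the CPM minimum in the acute table and so have no acute change. Of these, Col3a1 had 104, 75.4, 67.5 and 41.2 CPM in the 4 resistant libraries, Col1a2 47.7, 53.1, 131 and 271 CPM and Postn 68.7, 116, 155 and 452 CPM, each with at most 0.115 CPM in parental libraries and, for Postn, up to 2.41 CPM in the acute table, here without TMM scaling. On the same scale Mmp2 had 8.88, 6.87, 6.09 and 4.6 CPM, against 0.247 and 0.342 CPM in parental libraries. Twist2, a transcription factor, had 3.18, 3.27, 3.58 and 1.64 CPM against 2.07 and 2.99 CPM, with overlap. Among other fibroblast genes Dcn had 278, 223, 205 and 102 CPM and Pdgfrb 72.8, 59.7, 49.6 and 24.6 CPM. The summed CPM of 14 fibroblast markers, a list that shares 4 genes with the matrix list, lay between 1881 and 2104 in selpercatinib-resistant and between 1256 and 1393 in pralsetinib-resistant libraries, against 30.6 to 33.4 in parental ones. In the acute table it lay between 18.6 and 35.6 in selpercatinib and between 17.1 and 31.0 in DMSO. In resistant libraries most of this sum came from the 4 shared genes, Col1a1, Col1a2, Col3a1 and Postn. Of the 14 markers, 8 reached 1 CPM in both libraries of each resistant group. Lum, Dpt, Pi16 and Mfap5 of the same list stayed at or under 0.278 CPM in all libraries and Fap at or under 0.803 CPM, and Thy1 reached 14.6 CPM only at day 5 in selpercatinib. In the resistance table the fibroblast markers moved with the matrix genes, with which they share 4 genes, and against the epithelial genes. Acutely the 3 measured markers had a median change of -0.77, beside 0.36 for the matrix genes. The part of these markers in the matrix and epithelial results was not tested. Summed CPM of 15 immune markers was between 6.34 and 7.01 in resistant and between 8.96 and 9.93 in parental libraries, and of 10 endothelial markers between 7.17 and 8.32 and between 4.11 and 4.35. The defining genes Ptprc and Pecam1 stayed at or under 0.365 CPM in every library.

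Of 14 contractile genes listed, 10 were measured. The same call in both settings was given to 9 and 5 were kept with a size of at least 1, beside 4401 and 855 of all 13432 genes. Of the 10, 8 rose and 1 fell in resistant cells, 8 rose and 2 fell acutely, and the test of the difference called 5 lower and 1 higher. The medians were 1.13 in resistant cells and 1.99 acutely, and 4 of the 10 passed the CPM minimum only through resistant libraries and 4 only through selpercatinib libraries. Cnn1, the smooth muscle protein calponin, had 6.94, 7.09, 12.7 and 10.5 CPM in resistant libraries against 0 and 0.013 CPM in parental ones, and 2.43, 15.7, 46 and 145 CPM over days 1, 2, 3 and 5 in selpercatinib against 0.142, 0.15, 0.287 and 0.0983 CPM in DMSO. Cald1, caldesmon, changed by 0.18 ± 0.13 in resistant cells and 1.68 ± 0.22 acutely, and Tpm2, a tropomyosin, by 0.90 ± 0.07 in resistant cells and 2.29 ± 0.54 acutely. Smtn, smoothelin, fell in both. The smooth muscle myosin Myh11, which was not among the genes measured, reached at most 0.196 CPM in the resistant libraries and 14.1 CPM at day 5 in selpercatinib.

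Targets of YAP and TEAD, the effectors of the Hippo pathway, had a positive median change in both settings, smaller in resistant cells than acutely. Of 21 symbols listed, 19 were measured, 11 rose and 6 fell in resistant cells, 13 rose and 3 fell acutely, and the difference was lower for 13 and higher for 2, with medians of 0.41 in resistant cells and 0.94 acutely. Ccn1, a matricellular protein, rose in both by 1.61 ± 0.18 in resistant cells and 2.11 ± 0.54 acutely. Ccn2, its close relative, had 167, 150.2, 225 and 226 CPM in resistant libraries against 409 and 429 CPM in parental ones, and 1653, 2610.2, 2366 and 3137 CPM in selpercatinib against 465, 781, 760.2 and 513 CPM in DMSO. Amotl2, a feedback inhibitor of YAP, rose in both by 1.38 ± 0.04 in resistant cells and 1.82 ± 0.18 acutely. F3, tissue factor, changed by 0.50 ± 0.07 in resistant cells and 2.00 ± 0.49 acutely, and Nt5e, the ectonucleotidase CD73, by -3.39 ± 0.84 in resistant cells and -0.71 ± 0.55 acutely.

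**Figure D4:**
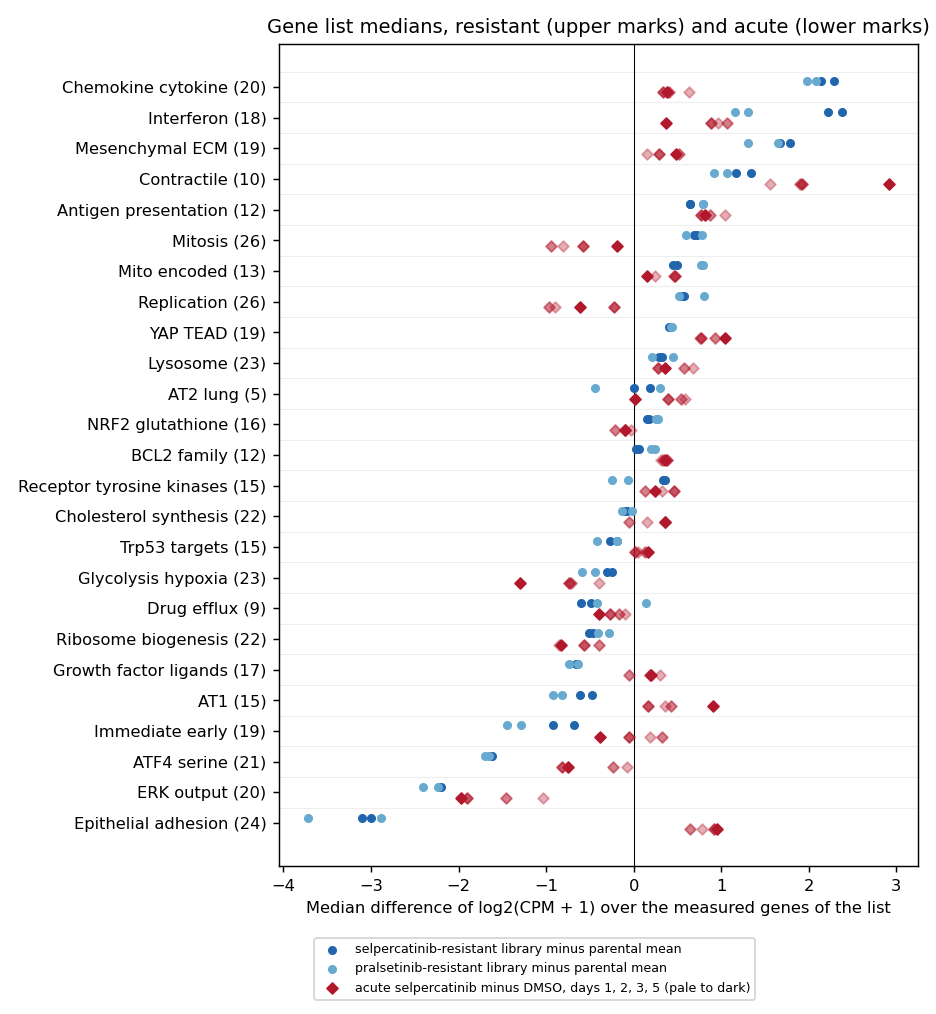
Median difference of log2(CPM + 1) for 25 gene lists with the number of measured genes in brackets, for each of the 4 resistant libraries minus the parental mean (blue) and for each acute day pair (red, pale at day 1 to dark at day 5). Blue and red marks lie on opposite sides of 0 for epithelial adhesion, mitosis and replication, and on the same side for ERK output, matrix, contractile, interferon and chemokine genes.

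Most interferon-stimulated genes that were measured rose in both settings. Of 28 listed, 18 were measured. In resistant cells 15 rose and 2 fell, beside 37.0% and 36.3% of all genes. Acutely 12 rose and none fell, beside 26.3% and 26.7% of all genes. The same call in both was given to 11, beside 4401 of all 13432 genes. Of the 18, 4 passed the CPM minimum only through resistant libraries and so had to be higher there. The medians were 1.78 in resistant cells and 0.80 acutely. The library medians were 2.38 and 2.22 in selpercatinib-resistant cells and 1.31 and 1.16 in pralsetinib-resistant cells, at doses that differed. Ddx58, the RNA sensor RIG-I, had 77.5, 79.5, 65.4 and 81.5 CPM in resistant libraries against 13 and 12.4 CPM in parental ones, and 63.4, 52.9, 62.3 and 58.6 CPM in selpercatinib against 12.9, 13.1, 17.7 and 20.4 CPM in DMSO. Ifih1, the RNA sensor MDA5, changed by 2.05 ± 0.21 in resistant cells and 1.72 ± 0.48 acutely. Gbp2, an interferon-induced GTPase, had a resistant change of 3.91 ± 0.27 that exceeded the acute one of 1.49 ± 0.39 (adjusted p = 0.0003, edgeR). Ifit2 changed by 3.13 ± 0.14 in resistant cells and 1.69 ± 0.50 acutely. Oasl1 fell in resistant cells by a change of -2.09 ± 0.64, and Rtp4 rose there to 10.3, 8.89, 3.31 and 2.74 CPM, against 0.413 and 0.441 CPM in parental libraries. Another 10 listed genes were not measured, among them Ifit1, with 19.1, 16.7, 3.06 and 2.58 CPM in the resistant libraries and at most 0.159 CPM in parental ones.

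The promoters of Ddx58 and Ifih1 are shown as the 2 kept interferon genes with the largest size, by the smaller of their changes, that held the core of the interferon-stimulated response element on either strand (GAAA, any 2 bases, GAAA). They lie at chr4:40239776-40240075 and chr2:62646206-62646505, both on the minus strand of GRCm38.p6 and from RefSeq, and capitals mark the match.
Ddx58: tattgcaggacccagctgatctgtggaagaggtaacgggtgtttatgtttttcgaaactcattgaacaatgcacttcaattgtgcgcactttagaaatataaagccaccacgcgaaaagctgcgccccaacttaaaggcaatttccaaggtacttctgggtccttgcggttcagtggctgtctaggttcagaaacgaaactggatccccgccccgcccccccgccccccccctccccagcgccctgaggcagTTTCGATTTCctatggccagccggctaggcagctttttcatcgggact
Ifih1: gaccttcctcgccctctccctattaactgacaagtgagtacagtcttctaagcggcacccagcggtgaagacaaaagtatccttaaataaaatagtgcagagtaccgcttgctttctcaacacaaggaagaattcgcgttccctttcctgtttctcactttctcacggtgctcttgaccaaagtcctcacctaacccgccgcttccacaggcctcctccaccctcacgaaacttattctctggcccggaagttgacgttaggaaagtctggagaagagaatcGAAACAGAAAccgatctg
The match begins at position 2 in Ddx58 and at position 32 in Ifih1. The core stands in 3.4% of the 32851 promoters, and a share over the list is void because promoters were matched for only 14 of its 28 genes.

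Chemokine and cytokine genes had a higher median in resistant cells. Of 27 listed, 20 were measured, 13 rose and 6 fell in resistant cells, 10 rose and 6 fell acutely, and the difference was higher for 10 and lower for 5, with medians of 2.21 in resistant cells and 0.37 acutely. Of the 20, 2 passed the CPM minimum only through resistant, 1 only through parental and 1 only through selpercatinib libraries. Cxcl12, a chemokine typical of stroma, had 858, 701, 519 and 448 CPM in resistant libraries against 0.93 and 0.857 CPM in parental ones, and 13, 19.6, 15.9 and 27.1 CPM in selpercatinib against 2.83, 2.02, 2.62 and 1.43 CPM in DMSO. Cxcl12 passed the CPM minimum in the resistance table through resistant libraries only, which fixed the direction of its resistant change. Cxcl5, a neutrophil chemokine, had 1527, 1462, 944 and 916 CPM in resistant libraries against 62.7 and 56.3 CPM in parental ones. Il33, an alarmin of the interleukin-1 family, rose in resistant cells by 4.32 ± 0.85 and fell acutely by a change of -0.74 ± 0.56, an acute call that was lost without the day 1 (0.0678), day 2 (0.0517) or day 5 (0.0902) pair or without the day as a block (0.0882). Cxcl10 rose alike in both, by 2.92 ± 0.43 in resistant cells and 3.20 ± 0.26 acutely (adjusted p of the difference = 0.455, edgeR). Csf2, the growth factor GM-CSF, fell in both, by changes of -3.12 ± 0.36 in resistant cells and -2.77 ± 0.47 acutely. Of 20 antigen presentation genes listed, 12 were measured, 8 rose and 4 fell in resistant cells, 10 rose and 1 fell acutely, and the medians were 0.72 in resistant cells and 0.89 acutely. Of the 12, 3 were kept with a size of at least 1, 2 had opposite calls, and the difference was higher for 1 and lower for 4. Tapbp, the peptide-loading protein tapasin, had changes of 1.91 ± 0.09 in resistant cells and 2.16 ± 0.16 acutely, and Erap1, a peptide-trimming protease, of 1.20 ± 0.17 in resistant cells and 1.18 ± 0.08 acutely. Cd74, the class II invariant chain, rose in both. H2-T23 changed by -1.52 ± 0.54 in resistant cells and -0.11 ± 0.85 acutely, Tapbpl by 0.41 ± 0.07 in resistant cells and 1.88 ± 0.06 acutely, and the immunoproteasome subunit Psmb10 by 1.93 ± 0.34 in resistant cells and 0.54 ± 0.12 acutely.

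Among receptor tyrosine kinases, 2 FGF receptors stood out. Fgfr2, at chr7:130162451-133123350, had 108 and 109 CPM in selpercatinib-resistant and 164 and 206 CPM in pralsetinib-resistant libraries, against 0.843 and 0.909 CPM in parental ones, and 18.7, 20.5, 21.8 and 24.5 CPM in selpercatinib against 1.17, 1.78, 1.68 and 1.56 CPM in DMSO. Fgfr3 had 18.3, 18.4, 40.8 and 43.4 CPM in resistant libraries against 0.31 and 0.558 CPM in parental ones, and 2.93, 3.31, 3.6 and 3.75 CPM in selpercatinib against 0.76, 0.777, 1 and 0.885 CPM in DMSO. For both genes the resistant rise exceeded the acute one (adjusted p = 2.54e-07 for Fgfr2 and 5.93e-07 for Fgfr3, edgeR), and both passed the CPM minimum in the resistance table through resistant libraries only. Met, the receptor of hepatocyte growth factor, had 323, 341, 282 and 393 CPM in resistant libraries against 161 and 165 CPM in parental ones, with no overlap. It had 252, 184, 162 and 131 CPM in selpercatinib and 222, 194, 154 and 129 CPM in DMSO, with an acute change of 0.05 ± 0.11. Erbb3, a partner of the EGF receptor family, fell in resistant cells by a change of -3.06 ± 0.12 and rose acutely by 0.74 ± 0.22. Egfr was called in opposite directions likewise, by -0.60 ± 0.28 in resistant cells and 1.30 ± 0.21 acutely. Ddr1, a collagen receptor, rose in both. Of the 15 measured among 23 receptors listed, 7 rose and 7 fell in resistant cells, beside 37.0% and 36.3% of all genes. Acutely 8 rose and 4 fell, beside 26.3% and 26.7% of all genes. The medians were 0.11 in resistant cells and 0.29 acutely. The resistant median was -0.26 in pralsetinib-resistant libraries alone and -0.06 without selpercatinib-resistant library 2.

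Of 22 growth factor ligands, 17 were measured, 7 rose and 10 fell in resistant cells, and 8 rose and 5 fell acutely, with medians of -0.68 in resistant cells and 0.07 acutely. The EGF-family ligands Areg and Btc fell in both and further in resistant cells, Areg by changes of -5.56 ± 0.61 there and -3.03 ± 0.33 acutely and Btc by -4.29 ± 0.23 in resistant cells and -2.68 ± 0.24 acutely. Ereg, of the same family, had 12.4, 13, 8.92 and 5.66 CPM in resistant libraries against 62.9 and 65.4 CPM in parental ones and overlapped between the acute arms. Fgf2 fell alike in both, by -2.43 ± 0.31 in resistant cells and -2.42 ± 0.29 acutely (adjusted p of the difference = 0.77, edgeR). Gdnf, a ligand that acts through RET with a co-receptor, rose in both by 2.43 ± 0.27 in resistant cells and 2.00 ± 0.26 acutely. Pdgfb fell in resistant cells by a change of -0.45 ± 0.23 and rose acutely by 1.53 ± 0.18.

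Metabolic and stress groups differed in what was kept. Targets of ATF4, the factor of the amino acid response, fell further in resistant cells: of 21 measured, 20 fell and none rose there, 12 fell and 1 rose acutely, and 19 were lower in the test of the difference, with medians of -1.62 in resistant cells and -0.39 acutely. Trib3, a pseudokinase of that response, had 14.5, 14.5, 11.4 and 12.6 CPM in resistant libraries against 176 and 195 CPM in parental ones. It had 28.9, 42.2, 65.1 and 92.8 CPM in selpercatinib and 29.5, 51.3, 157 and 199 CPM in DMSO, both higher at each later day. Chac1, a glutathione-degrading enzyme, changed by -2.61 ± 0.11 in resistant cells and -0.39 ± 0.57 acutely. Phgdh, the first enzyme of serine synthesis, fell in both by -1.55 ± 0.06 in resistant cells and -1.12 ± 0.06 acutely, and Slc7a11, the cystine transporter, by -2.60 ± 0.77 in resistant cells and -2.16 ± 0.82 acutely. Nupr1 was the listed gene that reversed, with changes of -1.92 ± 0.15 in resistant cells and 1.56 ± 0.55 acutely, and its acute call was lost without the day as a block (adjusted p = 0.0981, edgeR).

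Glycolysis and hypoxia genes had 16 falls and 4 rises of 23 in resistant cells and 17 falls and 1 rise acutely, with medians of -0.38 in resistant cells and -0.80 acutely. The lactate exporter Slc16a3 changed by -2.09 ± 0.86 in resistant cells and -1.92 ± 0.77 acutely, and the glucose transporter Slc2a1 by -1.30 ± 0.34 in resistant cells and -1.02 ± 0.38 acutely. Egln3, an oxygen-sensing hydroxylase, had a resistant change of -0.97 ± 0.81 beside a larger acute one of -2.65 ± 1.02 (adjusted p = 0.0121, edgeR, and 0.0582 without parental library 2). Ribosome biogenesis genes had 18 falls and 1 rise of 22 in resistant cells and 20 falls and no rise acutely, with medians of -0.43 in resistant cells and -0.72 acutely, and nucleophosmin (Npm1) changed by -0.68 ± 0.07 in resistant cells and -1.10 ± 0.23 acutely. The NRF2 and glutathione genes, 16 measured, had 10 rises and 4 falls in resistant cells and 3 rises and 5 falls acutely, with medians of 0.21 in resistant cells and -0.01 acutely (0.07 without the day 2 pair). Gclc, the catalytic subunit of glutathione synthesis, had 173, 155, 189 and 179 CPM in resistant libraries, against 72.5 and 69.4 CPM in parental ones, and fell acutely by a change of -1.02 ± 0.47, and Gclm, its partner, changed by 2.02 ± 0.19 in resistant cells and 0.21 ± 0.26 acutely. Gsta4, a glutathione transferase, changed by 1.95 ± 0.37 in resistant cells and -0.19 ± 0.73 acutely. Lysosomal genes had 14 rises and 5 falls of 23 in resistant cells and 12 rises and 1 fall acutely (medians 0.26 in resistant cells and 0.29 acutely). Ctsh, a cathepsin, fell by a change of -2.25 ± 0.28 in resistant cells beside 0.10 ± 0.44 acutely (adjusted p = 2.7e-05, edgeR). Cholesterol synthesis genes had small median changes, with 5 rises and 7 falls of 22 in resistant cells, 5 rises and 2 falls acutely, and medians of -0.10 in resistant cells (0.01 with library totals in place of TMM scaling) and 0.20 acutely. The 13 mitochondrially encoded genes had 13 rises in resistant cells and 7 acutely, and mitochondrial reads were 2.44 to 3.16% of counts in resistant libraries, 1.67 to 1.73% in parental, 1.97 to 2.33% in acute selpercatinib and 1.56 to 2.12% in acute DMSO libraries.

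Genes of p53, cell death and drug efflux were mixed. For comparison, 37.0% of all genes rose and 36.3% fell in resistant cells, and 26.3% rose and 26.7% fell acutely. Of 15 measured p53 targets, 7 rose and 8 fell in resistant cells and 4 rose and 4 fell acutely. Cdkn1a, the cell-cycle inhibitor p21, had 3.28, 3.47, 3.81 and 1.93 CPM in resistant libraries against 48.1 and 47.7 CPM in parental ones, and 27.4, 21.8, 20.7 and 19.3 CPM in selpercatinib against 48.7, 45.9, 43.6 and 49.1 CPM in DMSO. Fas, a death receptor, had 59.1, 54.4, 36.1 and 23.5 CPM in resistant libraries against 0.413 and 0.545 CPM in parental ones, and 0.728, 0.581, 1.7 and 1.88 CPM in selpercatinib against 0.0773, 0.0501, 0.0717 and 0.126 CPM in DMSO. Fas passed the CPM minimum through resistant and selpercatinib libraries only, which fixed the direction of both its changes. Of 12 measured BCL2-family genes, 6 rose and 5 fell in resistant cells and 6 rose and 3 fell acutely. Pmaip1, the BH3-only protein NOXA, rose in both by 1.51 ± 0.10 in resistant cells and 2.55 ± 0.42 acutely, the acute rise being larger (adjusted p = 0.00146, edgeR, and 0.0528 without the day as a block). Bmf, another BH3-only protein, changed by 1.15 ± 0.31 in resistant cells and 1.22 ± 0.92 acutely, and Bcl2l1, which encodes the survival protein BCL-XL, fell by changes of -1.54 ± 0.14 in resistant cells and -0.77 ± 0.22 acutely. Of 9 measured efflux transporters, 3 rose and 5 fell in each setting, and 1 passed the CPM minimum in the resistance table only through parental libraries. Abcb1a, a P-glycoprotein gene, had 6.06, 6.82, 5.71 and 3.49 CPM in resistant libraries against 57.6 and 60.4 CPM in parental ones, and an acute change of -1.79 ± 1.07. Abcg2, the breast cancer resistance protein, had 38.5, 35.6, 38.8 and 50.6 CPM in resistant libraries against 9.71 and 11.5 CPM in parental ones, and 47.5, 38.6, 28.5 and 16.5 CPM in selpercatinib against 21.2, 16.2, 10.7 and 7.6 CPM in DMSO.

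Alveolar type 1 genes, the markers of the thin gas-exchange cell, split. Of 16 listed, 15 were measured, 4 rose and 8 fell in resistant cells, 9 rose and 4 fell acutely, and the medians were -0.71 in resistant cells and 0.78 acutely, with 4 of the 15 past the CPM minimum only through resistant and 2 only through selpercatinib libraries. The basement membrane collagen chains Col4a3 and Col4a4 reversed. Col4a3 had 4.11, 2.32, 6.19 and 3.23 CPM in resistant libraries against 24.1 and 22.1 CPM in parental ones, and 135, 299, 441 and 569.6 CPM in selpercatinib against 17.6, 26.7, 50.6 and 37.9 CPM in DMSO, and Col4a4 changed by -1.40 ± 0.44 in resistant cells and 2.81 ± 0.28 acutely. Igfbp2, a marker of mature type 1 cells, was kept, with 56.6, 45, 77.7 and 60.0 CPM in resistant libraries against 0.0344 and 0.026 CPM in parental ones, and 0.065, 0.449, 1.02 and 5.77 CPM in selpercatinib against 0, 0.0752, 0 and 0.0843 CPM in DMSO. Igfbp2 passed the CPM minimum through resistant and selpercatinib libraries only, which fixed the direction of both its changes. Of 15 type 2 and lung lineage genes, 5 were measured, and the surfactant genes Sftpa1, Sftpb, Sftpc and Sftpd stayed at or under 0.332 CPM in every library of both tables. Cxcl15, a chemokine of lung epithelium on the same list, had 173, 124, 55.9 and 24.7 CPM in the 4 resistant libraries, against at most 0.148 CPM in parental ones and 0.49 CPM in the acute table, here without TMM scaling. Slc34a2, a phosphate transporter, and Lyz2, a lysozyme, reached at most 1.55 and 0.889 CPM in resistant libraries. Of these 5, 1 rose and 2 fell in resistant cells, 3 rose and 2 fell acutely, and the difference was higher for 1 and lower for 2. Foxa1, a lung endoderm factor, fell in resistant cells by a change of -0.45 ± 0.27 and rose acutely by 0.79 ± 0.28. Foxa2, of the same list, went the other way: it fell acutely, and its difference was higher. Its acute call was lost without the day 2 pair (adjusted p = 0.051, edgeR), the day 3 pair (0.0806) or the day as a block (0.122). Its call of the difference was lost without the day as a block (0.0863).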

How the data were processed

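RNA-seq of 14 libraries from the line TR.1 was analysed, made with a stranded poly(A) kit per the labels' protocols. Per the submitters' processing notes, the authors used FastQC, STAR, the mm10 build and edgeR, with no versions given. No source used here gives the counting tool, the annotation or the strand setting, so reads of overlapping genes may not be separated. The deposited values are whole-number read counts per gene, although the deposited tables are called CPM, and they were taken as raw counts. Both tables have 55415 rows, of which 55314 symbols matched GENCODE M21 and 24 are 5-digit numbers that hold 0.163 to 0.215% of a library's counts.

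The 13432 genes analysed reached a CPM of 1 in 2 or more libraries of each table. Unless stated, CPM was scaled by TMM, and differences are of log2(CPM + 1). edgeR's quasi-likelihood test (edgeR 4.0.16, R 4.3.3) was run with day as a block for the acute table, with 3 groups for the resistance table, and on all 14 libraries, with an intercept per acute day and 1 for the resistance table, for the difference between the changes. All tests were two-sided with Benjamini-Hochberg adjustment over all 13432 genes and a threshold of 0.05, and the scripts were checked on simulated counts. Standard errors are approximate, taken from the fold change and F. Both acute arms share a batch label for each day, and same-day libraries deviated from their arm means together (correlations 0.463 to 0.655). Between days the correlation reached 0.592. No 2 libraries of a group agreed within sampling noise.

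Alternatives were RLE and library-total scaling, DESeq2 1.42.0, limma 3.58.1, other filters, pseudocounts and sizes, no day block, and leaving out each day pair or library. From each kind of gene, 4 or 6 genes per direction with the largest changes and a mean CPM of at least 5 in each table were named. No overlap between resistant and parental libraries was also asked, other than for the acute kind with little resistant change. From each list, up to 3 genes called in both tests, in the same or opposite directions, and up to 3 whose changes differed were named. Of the genes so named, 2 are not reported here. Ret, Trim24 and Met were to be named in any case. Ccnd1, Ier3, Cdh1, Grhl2, Krt8, Krt18, Tjp3, Dsg2, Elf3, Cdk1, Vim, Zeb1, Twist1, Egfr, Gdnf and the genes without an acute change were chosen after their values were seen. The genes and the 28 lists were chosen with earlier results of these data known. Figures used Python 3.11.15 and matplotlib 3.10.9.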

Additional observations from a re-analysis of the deposited data

Results flagged for a closer look

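Among the 136 sets of 4 values examined (4 resistant libraries or 4 day pairs, for a named gene or a list median), 3 held 1 value whose gap to the nearest other value exceeded the share of the whole range that Dixon's test allows at the 95% level. Chance alone gives such a value in some sets, at a rate of 0.05 per set. For Aqp8, a water channel, the pralsetinib-resistant 200 nM library lay -5.55 from the parental mean on the log2(CPM + 1) scale, against -5.59 in each of the other 3 resistant libraries, and this gap rests on under 3 counts. Nptx1, a neuronal pentraxin, lay at -5.71 in the same library, which held 0.977 CPM against 0.106 to 0.154 CPM in the other resistant libraries. Itgb4, the hemidesmosome integrin, had a day 5 difference between selpercatinib and DMSO of -0.29, whereas it was higher in selpercatinib on days 1, 2 and 3. The selpercatinib-resistant and pralsetinib-resistant libraries, at doses that differed, were also compared with each other for 43 named genes, and edgeR called 12 as different (adjusted p between 0.00731 and 0.0419). Values are the selpercatinib-resistant minus the pralsetinib-resistant log2 fold change. Spp1, osteopontin, was the gene with calls in opposite directions, at 0.57. Among genes that rose in both, the value was 1.05 for Adam19, 0.88 for Creb3l1, 0.58 for Lifr and 0.56 for Adamts9, and -0.33 for Tgfb2 and -0.46 for Hs3st1. Among genes that fell in both, it was 1.34 for Acan and 0.51 for Plau. Sh2d4a (-0.80) and Apcdd1 (0.43) were called against parental cells in pralsetinib-resistant libraries alone, and Mmp15 (-0.45) in selpercatinib-resistant libraries alone.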

How the results depend on the processing

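Counts of calls stayed within 1.5 times their value under RLE scaling (9849 resistant, 7141 acute, 6639 for the difference), DESeq2 (9793, 7561 and 6923), limma (9917, 7198 and 6701) and no filter on low counts (13279, 8847 and 8287 of 32070 genes). With library totals in place of TMM, 7145 differences were called, 63.5% of them higher against 49.8%, and the median log2 change of all genes shifted to 0.12 in resistant cells. Without the day as a replicate block, 5097 acute changes and 4198 differences were called. In the resistance table the labelled numbers did not pair selpercatinib-resistant with parental libraries (correlation -0.101). Of these 4 libraries 10540 genes were called with no block, 10385 with the labelled numbers as a replicate block and 10714 with the crossed pairing, which was added after seeing the data. The kinds of gene depended on the size asked. At 1.5-fold, 1886 genes were kept, 318 reversed, 2067 changed in resistant cells with little acute change and 813 the other way. At 4-fold these were 213, 6, 192 and 24. A pseudocount of 5 left 474 kept and 33 reversed, a mean CPM of at least 5 left 40 reversed among 10382 genes, and edgeR's own fold changes, also added after seeing the data, gave 136 reversed. The correlation was 0.466 by Spearman. Leaving out a day pair or library gave 8046 to 10800 resistant, 5198 to 6936 acute and 5015 to 6784 difference calls, 7386 to 10516 for selpercatinib-resistant and 7687 to 10049 for pralsetinib-resistant cells. It left 805 to 914 kept and 86 to 90 reversed genes, 867 to 957 with little acute and 206 to 272 with little resistant change, and correlations of 0.517 to 0.553. With 1 library left in a group, that library was assumed to vary like the others. Over all named genes and alternatives, 18 resistant, 67 acute and 89 difference values lost their call, and no called value changed direction. A count of 3 limits levels under 0.0494 CPM.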
